A study of Canis lupus familiaris with 24 samples.

Results

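ZEB1 and ZEB2 are the 2 members of a family of zinc finger and homeobox transcription factors, and they were taken from the count table by gene symbol. They were 2 of 32704 genes listed, as ENSCAFG00000004023 for ZEB1 and ENSCAFG00000005497 for ZEB2, and both were among the 12466 genes with enough counts to be tested. The study sequenced RNA from MDCK, a canine kidney epithelial cell line, as the sublines MDCK-II and MDCK-NBL2. From each subline, cells were taken at day 0 and, at day 4, from both untreated and TGFb-treated cultures. TGFb-treated MDCK-NBL2 cells were also transfected with a control siRNA, siCTR, or with siPRRX1, an siRNA against the transcription factor PRRX1, and both of these groups were taken at day 4. Each of the 8 groups had 3 libraries. The labels describe untreated cells as epithelial, treated MDCK-II cells and treated MDCK-NBL2 cells with siPRRX1 as partial EMT, and the other treated MDCK-NBL2 cells as full EMT. They do not say whether replicates were separate cultures, so every p-value below measures the spread between these libraries, which may be technical.

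ZEB1 and ZEB2 bind E-box sequences, among them those of the E-cadherin gene CDH1, and mainly repress transcription by recruiting CtBP corepressors. They are known as drivers of EMT, the epithelial-mesenchymal transition, a loss of junctions and polarity with a gain of migratory and matrix-producing traits. TGFb signalling through SMAD proteins and the factors SNAI1, SNAI2 and PRRX1 act upstream or alongside, while the MIR200A family of microRNAs and epithelial factors such as GRHL2 and OVOL2 keep ZEB levels down, and ZEB proteins repress those microRNA genes in turn.

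Total counts ran from 6134929 to 27567296 per library. Levels are counts per 1000000 on library sizes scaled by TMM (CPM). The table gives no transcript length, so the level of ZEB1 is not compared with that of ZEB2. A pair of libraries without TGFb differed from the others of their groups and are called below the libraries that stood apart. In untreated MDCK-NBL2 of day 4, the library labelled replicate 2 held the fibronectin gene FN1 at 28840 CPM, against 1701 and 2018 CPM in replicates 1 and 3. The library labelled MDCK-NBL2 day 0 replicate 1 held PRRX1 at 7.07 CPM, against 0.661 and 0.404 CPM. PRRX1 was also uneven in treated MDCK-NBL2, at 37.2 CPM in replicate 1 against 8.89 and 5.71 CPM. With siCTR it stood at 33.9 CPM in replicate 1, against 7.35 and 3.88 CPM. Those treated libraries were kept in the fits without the libraries that stood apart, so only libraries without TGFb were removed there. The 4 epithelial markers in the table summed to between 2294 and 7181 CPM in every library, and the 5 endothelial and 5 leukocyte markers to at most 9.60 and 4.75 CPM. The 6 fibroblast markers summed to at most 48.0 CPM in MDCK-II, to between 14.3 and 245 CPM in untreated MDCK-NBL2 and to between 689.5 and 2839 CPM in treated MDCK-NBL2, mostly as the collagen gene COL1A2, which had no count in any MDCK-II library. In such bulk samples a change in the number of cells that express a gene and a change in its RNA per cell cannot be told apart.

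ZEB1 was detected in all 24 libraries, at low counts. In MDCK-II at day 0 its level was 4.42, 2.20 and 3.84 CPM, from 64, 56 and 32 counts. In untreated MDCK-II at day 4 it was 0.504, 1.16 and 1.15 CPM, and with TGFb 7.04, 13.3 and 9.93 CPM. The 3 groups of MDCK-II libraries did not overlap, with untreated day 4 lowest and TGFb highest. In MDCK-NBL2 at day 0 ZEB1 stood at 5.82, 0.827 and 0.943 CPM, so that replicate 1 lay apart from the others. In untreated MDCK-NBL2 at day 4 it stood at 0.122, 1.48 and 0.459 CPM, from 3, 40 and 4 counts, with replicate 2 highest. With TGFb it stood at 12.3, 4.02 and 4.36 CPM, all above the untreated libraries of day 4. Treated cells with siCTR held 13.5, 3.99 and 2.91 CPM, and those with siPRRX1 held 3.68, 1.13 and 1.70 CPM. Replicate 1 was thus the highest library in 4 of the 5 MDCK-NBL2 groups and the lowest in the untreated group of day 4.

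Ordered by mean, the ZEB1 level was 10.1 ± 3.11 CPM (SD, n = 3) in treated MDCK-II, 6.89 ± 4.67 in treated MDCK-NBL2 and 6.79 ± 5.81 with siCTR. It was 3.49 ± 1.15 in MDCK-II and 2.53 ± 2.85 in MDCK-NBL2 at day 0, and 2.17 ± 1.34 with siPRRX1. The lowest means were 0.939 ± 0.377 and 0.687 ± 0.707 CPM, in untreated MDCK-II and MDCK-NBL2 at day 4. The library ranges of every neighbouring pair in this order overlapped, so the order of neighbours is not resolved by these replicates.

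ZEB2 was much sparser in raw counts. MDCK-II held 1 count in each library at day 0, and 1, 0 and 0 counts in the untreated libraries of day 4. With TGFb it held 10, 35 and 4 counts, or 0.903, 1.28 and 0.446 CPM. ZEB2 was therefore at the edge of detection in MDCK-II without TGFb and present in all 3 treated libraries. MDCK-NBL2 held 10, 0 and 0 counts at day 0 and 1, 45 and 0 counts untreated at day 4. The counts of 10 and 45 came from the libraries that stood apart, in which ZEB2 reached 0.693 and 1.66 CPM. With TGFb, MDCK-NBL2 held 18, 21 and 7 counts, or 3.45, 2.56 and 1.05 CPM. With siCTR it held 74, 11 and 3 counts, or 3.27, 1.76 and 0.485 CPM, and with siPRRX1 24, 5 and 4 counts, or 1.21, 0.565 and 0.565 CPM.

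The mean ZEB2 level was 2.35 ± 1.21 CPM in treated MDCK-NBL2 (SD, n = 3), 1.84 ± 1.39 with siCTR, 0.876 ± 0.416 in treated MDCK-II and 0.780 ± 0.373 with siPRRX1. It was 0.568 ± 0.949 in untreated MDCK-NBL2 at day 4, 0.231 ± 0.400 in MDCK-NBL2 at day 0, 0.0761 ± 0.0408 in MDCK-II at day 0 and 0.0240 ± 0.0416 in untreated MDCK-II at day 4. Neighbours in this order overlapped in every case. Pooled over its libraries, the single count in untreated MDCK-II at day 4 has an exact 95% Poisson interval of 0.00048 to 0.106 CPM, and the 46 counts in treated MDCK-NBL2 one of 1.68 to 3.06 CPM. These intervals cover counting error only.

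**Figure D1:**
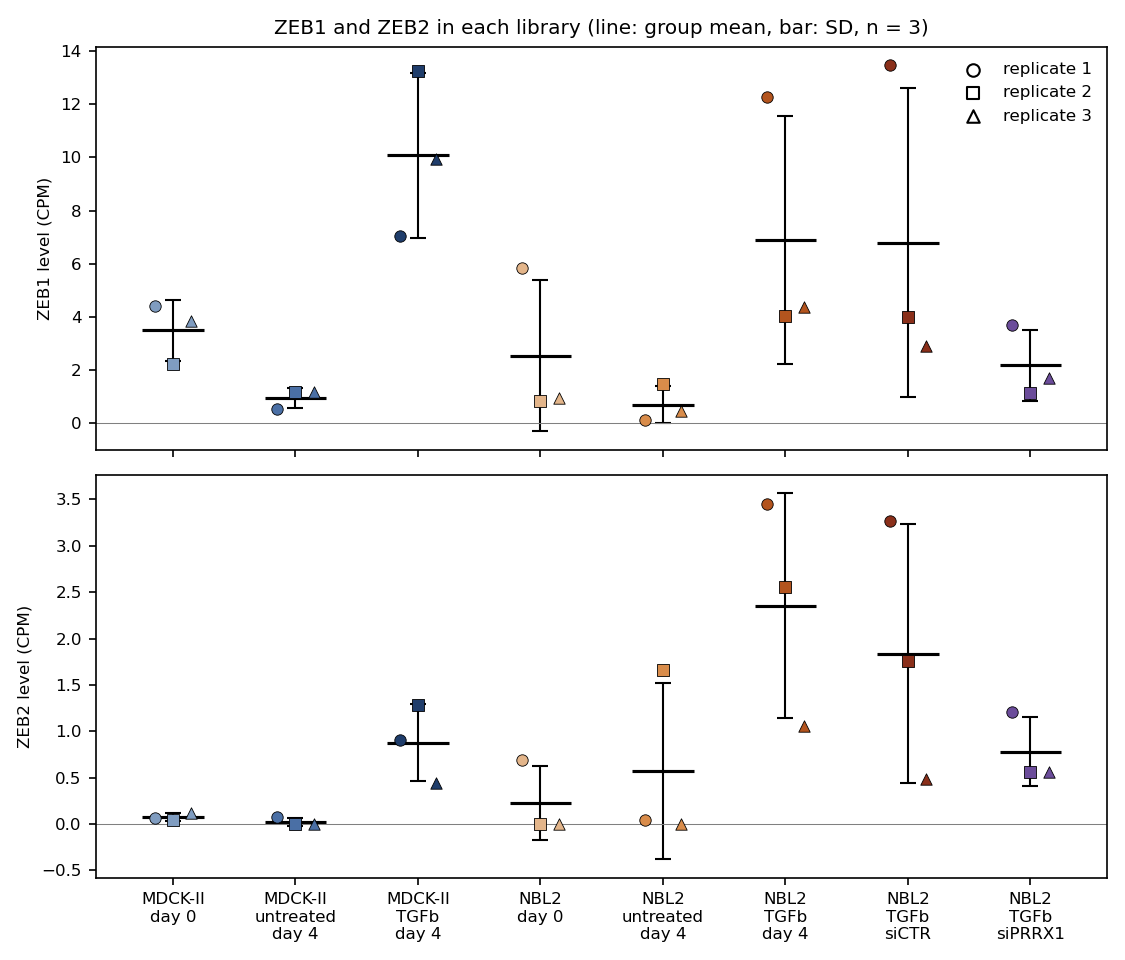
Level of ZEB1 (upper) and ZEB2 (lower) in CPM on linear axes for each of the 24 libraries, by group, with the group mean as a line and the SD as a bar (n = 3). Treated libraries of MDCK-II reach 13.3 CPM for ZEB1 and 1.28 CPM for ZEB2, and single libraries at day 0 and untreated day 4 of MDCK-NBL2 stand above their group for both genes.

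Both genes rose in MDCK-II cells given TGFb, compared with untreated cells of the same day. ZEB1 rose by 3.41 ± 0.82 on the log2 scale (± SE), a 10.6-fold higher level, with an adjusted p of 0.0072 in edgeR's quasi-likelihood test, and all 3 treated libraries lay above all 3 untreated ones. ZEB2 rose by 5.07 ± 1.64 on the log2 scale, with an adjusted p of 0.035. Since its untreated group held 1 count in all, the ratio of summed counts is the safer measure, and it was 54.5 with an exact 95% interval of 9.34 to 2197 for counting error. Of all genes tested, 21.1% changed in this comparison. The ZEB2 call was lost in 5 of 7 fits that left out 1 library, among them any of the 3 untreated ones, with adjusted p up to 0.15, while the ZEB1 call held in all 7. Of these 7 fits, 1 left out untreated MDCK-NBL2 day 4 replicate 2, which is not part of this comparison. Same-numbered libraries of these groups deviated together. In a fit of these 6 libraries with the replicate number as a block, which called 28.4% of genes, ZEB1 rose by 3.48 ± 0.23 on the log2 scale (adjusted p = 0.00063, edgeR), and ZEB2 had too few counts to be fitted.

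In MDCK-NBL2 the same treatment raised ZEB1 by 3.18 ± 0.84 on the log2 scale, 9.08-fold (adjusted p = 0.0051, edgeR), and here 44.3% of all genes changed. The lowest treated library, at 4.02 CPM, lay above the highest untreated one, at 1.48 CPM. The call was lost when the 6 libraries were fitted alone, where the change was 3.22 ± 0.87 (adjusted p = 0.064, edgeR) and 4.48% of genes were called. ZEB2 did not pass, at 1.81 ± 0.97 (adjusted p = 0.14, edgeR; 95% interval -0.22 to 3.84), and its groups overlapped because untreated replicate 2 held 1.66 CPM. Both libraries that stood apart were also left out, a choice made after seeing the data, and 54.9% of genes then changed. Untreated replicate 2 was the highest of its group for ZEB1 and ZEB2, so its removal raised both differences by construction. ZEB1 then differed by 4.86 ± 0.92 on the log2 scale (adjusted p = 0.0002, edgeR) and ZEB2 by 5.92 ± 1.07 (adjusted p = 0.00015, edgeR). These values are thus no independent support for a rise. The remaining untreated libraries held 1 ZEB2 count in all, and the ratio of summed counts was 76.4 with an exact 95% interval of 13.04 to 3082.

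The responses of the sublines were compared directly, as the MDCK-NBL2 response minus that of MDCK-II. For ZEB1 the difference was -0.23 ± 1.17 on the log2 scale (adjusted p = 0.95, edgeR), with a 95% interval of -2.67 to 2.22. For ZEB2 it was -3.26 ± 2.03 (adjusted p = 0.36, edgeR), with an interval of -7.51 to 0.99. Of all genes tested, 5.70% differed. Intervals this wide do not show that the responses were alike. Without the libraries that stood apart the differences were 1.46 ± 1.16 for ZEB1 and 0.86 ± 3.17 for ZEB2, so that both changed sign and neither passed (adjusted p = 0.41 and 0.89, edgeR).

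The levels of treated cells were also set against day 0, in comparisons that share the treated libraries with those above. In each subline, 1 of the 7 fits without 1 library left out untreated MDCK-NBL2 day 4 replicate 2, which is outside these comparisons. In MDCK-II, ZEB2 rose by 3.70 ± 1.41 on the log2 scale (adjusted p = 0.047, edgeR), a call lost in 6 of 7 fits without 1 library. ZEB1 was 1.56 ± 0.73 higher (adjusted p = 0.1, edgeR), without overlap between the groups. A lack of overlap, here and below, describes 3 libraries against 3 and is no test. Among all genes 36.2% changed. In MDCK-NBL2, where 58.2% of all genes changed, ZEB2 rose by 3.37 ± 1.16 (adjusted p = 0.018, edgeR), a call lost in 3 of 7 fits without 1 library, and ZEB1 stood 1.40 ± 0.77 higher (adjusted p = 0.12, edgeR). When the libraries that stood apart were left out, 58.5% of genes changed and ZEB1 passed as well, at 2.94 ± 0.74 (adjusted p = 0.0024, edgeR). The other 2 libraries of day 0 then held no ZEB2 count, and its level was at least 28.8-fold higher with TGFb, taking a floor of 3 counts over the group. The library removed from day 0 had held the highest ZEB1 level and all ZEB2 counts of its group. Leaving it out thus raised both differences by construction.

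Between day 0 and day 4 without TGFb, ZEB1 stood lower at day 4 in both sublines, but neither difference passed. In MDCK-II it was -1.85 ± 0.82 on the log2 scale (adjusted p = 0.16, edgeR; 95% interval -3.57 to -0.12), with no overlap between the groups, while 9.81% of genes changed. In a fit of these 6 libraries alone, which called 10.1% of genes, it passed at -1.82 ± 0.42 (adjusted p = 0.039, edgeR). In MDCK-NBL2 it was -1.78 ± 0.84 (adjusted p = 0.13, edgeR), while 17.7% of genes changed. Leaving out untreated replicate 2 gave -3.47 (adjusted p = 0.049, edgeR), and leaving out replicate 1 of day 0 gave -0.23. ZEB2 differed by -1.37 ± 2.38 in MDCK-II and 1.56 ± 1.17 in MDCK-NBL2 (adjusted p = 0.75 and 0.34, edgeR).

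The sublines were also compared state by state. At day 0 the ZEB1 difference, MDCK-NBL2 minus MDCK-II, was -0.43 ± 0.76 on the log2 scale (adjusted p = 0.73, edgeR), and 28.5% of genes differed. With the libraries that stood apart left out it was -1.97 ± 0.73 (adjusted p = 0.049, edgeR), where 30.3% of genes differed. That choice removed the highest ZEB1 value of MDCK-NBL2 at day 0. Untreated at day 4, the ZEB1 difference was -0.36 ± 0.90 (adjusted p = 0.78, edgeR). ZEB2 was called higher in MDCK-NBL2 there, by 4.58 ± 1.67 (adjusted p = 0.038, edgeR), among 36.3% of genes called, but 45 of its 46 counts came from replicate 2. Without the libraries that stood apart the ZEB2 difference was 0.44 ± 1.76 (adjusted p = 0.88, edgeR), from 1 count in each subline, and 34.2% of genes were called. With TGFb, ZEB1 differed by -0.59 ± 0.72 (adjusted p = 0.53, edgeR) and ZEB2 by 1.32 ± 0.97 (adjusted p = 0.28, edgeR), while 45.9% of genes differed.

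**Figure D2:**
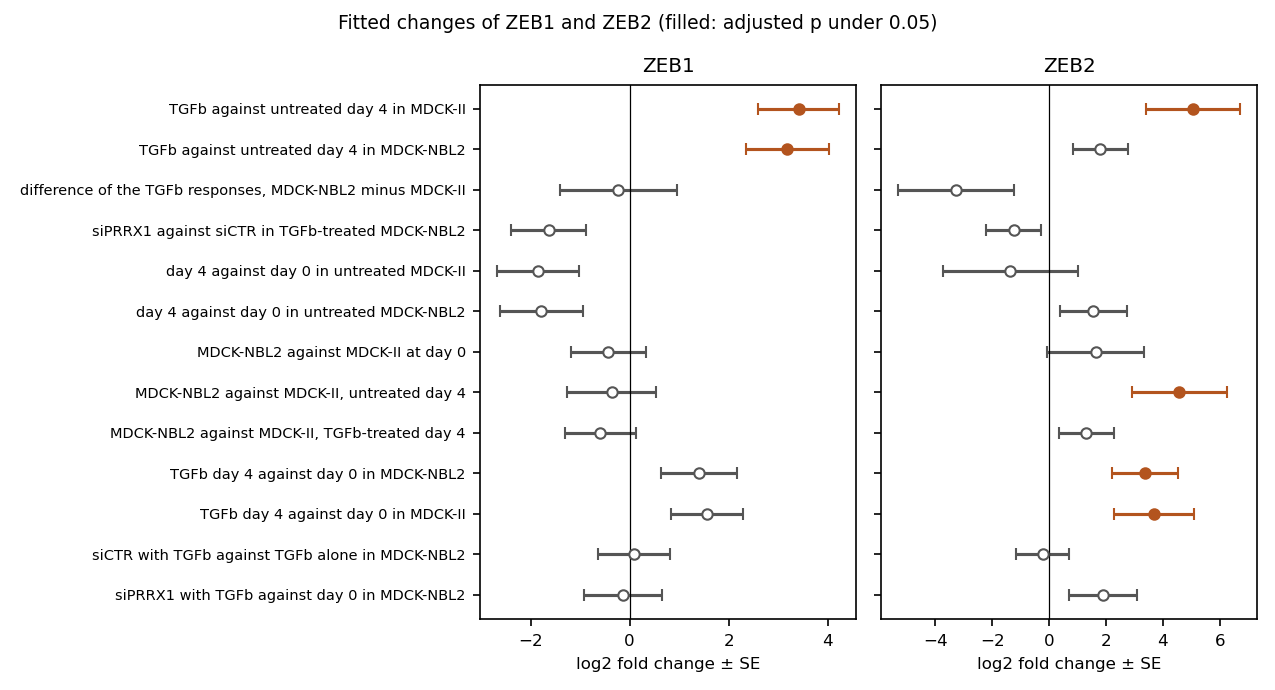
Fitted log2 fold changes of ZEB1 (left) and ZEB2 (right) with their SE in the 13 comparisons, filled where the adjusted p is under 0.05. ZEB1 passed in both comparisons of TGFb with untreated day 4, and the SE of ZEB2 is wide wherever a group held few counts.

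The knockdown comparison asks how ZEB1 and ZEB2 stand in TGFb-treated MDCK-NBL2 cells when PRRX1 is silenced. PRRX1 itself was held at 33.9, 7.35 and 3.88 CPM with siCTR and at 1.11, 0.339 and 0 CPM with siPRRX1, a fall of 4.64 ± 1.17 on the log2 scale (adjusted p = 0.043, edgeR). ZEB1 was lower with siPRRX1 in each same-numbered pair, by 3.66-fold, 3.54-fold and 1.72-fold in replicates 1, 2 and 3. The labels number the libraries in a lower and a higher series, and both members of a pair came from the same one, the lower for replicate 1 and the higher for replicates 2 and 3. Across all libraries the ZEB1 difference was -1.64 ± 0.76 on the log2 scale and did not pass (adjusted p = 0.32, edgeR; unadjusted p = 0.044), with 2.00% of genes called and overlapping groups.

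The replicates of these groups deviated together, and the paired fit of the 6 libraries gave a ZEB1 difference of -1.66 ± 0.25, which passed (adjusted p = 0.0023, edgeR). That fit called 22.5% of genes, so that a call was far more common in it. With the block in the fit of all libraries the ZEB1 difference was -1.58 ± 0.74 (adjusted p = 0.31, edgeR). Without siCTR replicate 1 the unpaired difference was -0.58. ZEB2 was lower with siPRRX1 in replicates 1 and 2, by 2.70-fold and 3.11-fold, and 1.16-fold higher in replicate 3, from 4 counts against 3. Its difference was -1.25 ± 0.97 (adjusted p = 0.61, edgeR; 95% interval -3.27 to 0.78).

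SNAI2, which encodes the E-box repressor Slug, was lower in all 3 pairs, by 1.97-fold, 2.93-fold and 3.51-fold, at -1.34 ± 0.65 on the log2 scale (adjusted p = 0.35, edgeR), without overlap between its groups. Treated cells with siCTR and treated cells without siRNA differed by 0.09 ± 0.73 for ZEB1 and -0.22 ± 0.93 for ZEB2, and 0% of genes were called by edgeR or by DESeq2 in that comparison, where 212 genes had an unadjusted edgeR p under 0.05. The SNAI2 levels of those groups did not overlap either. Compared with day 0, cells with TGFb and siPRRX1 differed by -0.14 ± 0.78 for ZEB1 and 1.91 ± 1.20 for ZEB2 (adjusted p = 0.89 and 0.18, edgeR), against 57.0% of genes called. When the libraries that stood apart were left out, the ZEB1 difference was 1.43 ± 0.75 (adjusted p = 0.11, edgeR). ZEB2 was then at least 11.6-fold higher with siPRRX1 than at day 0 and passed (adjusted p = 0.00093, edgeR). In that fit 57.1% of genes were called. Replicate 1 of day 0 had held all 10 ZEB2 counts of its group and its highest ZEB1 level. Its removal, chosen after seeing the data, thus raised both differences by construction. The ZEB2 call is therefore no independent support for a higher level with siPRRX1.

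**Figure D3:**
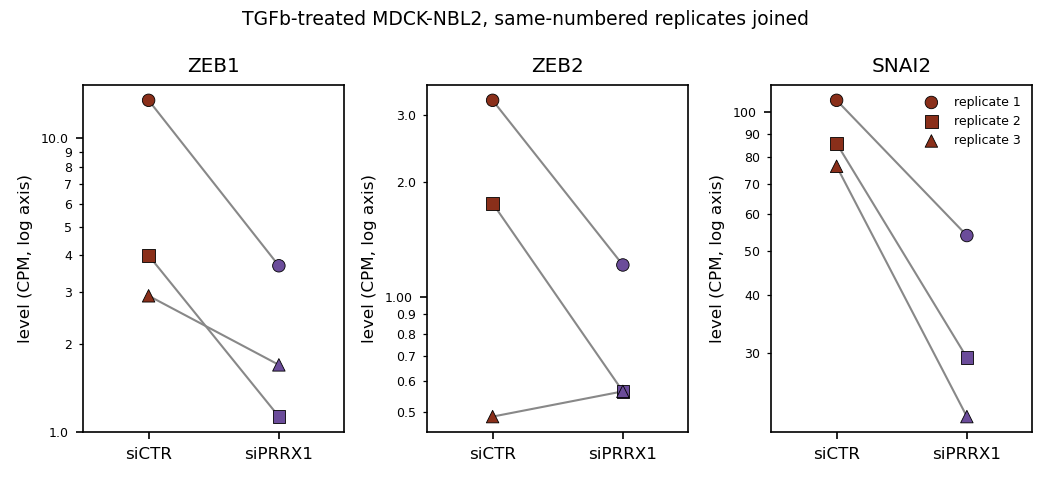
Levels of ZEB1, ZEB2 and SNAI2 in CPM on log axes in TGFb-treated MDCK-NBL2 cells with siCTR and siPRRX1, with same-numbered replicates joined. ZEB1 and SNAI2 were lower with siPRRX1 in all 3 pairs, and ZEB2 in 2 of 3.

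Among upstream genes of TGFb signalling and EMT transcription factors, 15 of 21 listed were tested. TGFb raised 4 and lowered 0 in MDCK-II, with a median of 0.53 on the log2 scale, against -0.03 over all genes, of which 21.1% were called. TGFB2, a TGFb ligand, rose by 2.24 ± 0.22 (adjusted p = 4.2e-06, edgeR). SMAD7, the inhibitory SMAD of the pathway, rose by 3.38 ± 0.51 (adjusted p = 0.00028, edgeR), the E-box repressor SNAI1 by 1.27 ± 0.34 (adjusted p = 0.013, edgeR) and TCF3, an E-box factor, by 0.47 ± 0.14 (adjusted p = 0.021, edgeR). In MDCK-NBL2, 5 rose and 3 fell, with a median of 0.16 against -0.04 over all genes, so that 8 of 15 were called beside 44.3% of all genes. In the fit of these 6 libraries alone none of the 15 passed, beside 4.48% of genes called. TGFB2 rose by 0.84 ± 0.21 (adjusted p = 0.0034, edgeR), SNAI2 by 2.51 ± 0.67 (adjusted p = 0.0056, edgeR), TGFB3 by 2.68 ± 0.78 (adjusted p = 0.0096, edgeR) and PRRX1 by 3.41 ± 1.02 (adjusted p = 0.011, edgeR). SNAI1 did not pass there, at -0.26 ± 0.32. The direct test of the difference between sublines passed for TGFB2, SMAD3 and SMAD7, whose responses were lower in MDCK-NBL2 by 1.40, 1.30 and 2.40 on the log2 scale. None of these 3 differences was called when only the 4 groups were fitted, where 48 of 12163 genes were called. Without the libraries that stood apart, 9 upstream genes rose in MDCK-NBL2, where 54.9% of genes were called, SNAI2 by 4.20 and TGFB3 by 5.89, and the difference for SMAD7 was -0.98 (adjusted p = 0.014, edgeR). With siPRRX1, PRRX1 was the 1 of 15 that fell and none rose, beside 2.00% of all genes. Its call was lost without siCTR replicate 1, in a fit that called 98 of 12576 genes.

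The repressor function of ZEB proteins depends on corepressors and chromatin enzymes, and 15 of these were listed and tested. In MDCK-II, TGFb lowered HDAC2, a histone deacetylase, by 0.66 ± 0.14 on the log2 scale (adjusted p = 0.0032, edgeR). It raised MTA1, a subunit of the NuRD deacetylase complex, by 0.32 ± 0.10 (adjusted p = 0.024, edgeR). The other 13 did not pass. In MDCK-NBL2, 2 rose and 5 fell. HDAC3 fell by 0.46 ± 0.10 (adjusted p = 0.0011, edgeR), and the CtBP genes CTBP2 and CTBP1 fell by 0.69 ± 0.15 and 0.47 ± 0.14 (adjusted p = 0.0014 and 0.014, edgeR). CHD4, the NuRD remodeller, rose by 0.55 ± 0.14 (adjusted p = 0.0033, edgeR). With siPRRX1 none of the 15 passed. The 2 and 7 of 15 called stand beside 21.1% and 44.3% of all genes. None of the 15 passed in MDCK-NBL2 in the fit of its 6 libraries alone, which called 4.48% of genes.

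Of 15 factors known to hold ZEB levels or ZEB protein down, 8 were in the table and tested. In MDCK-II, TGFb lowered ELF3, an epithelial ETS factor, by 1.33 ± 0.41 on the log2 scale (adjusted p = 0.028, edgeR), and GRHL2, a grainyhead factor that represses ZEB1, by 0.91 ± 0.29 (adjusted p = 0.034, edgeR). SIAH1, a ubiquitin ligase, rose by 0.62 ± 0.14 (adjusted p = 0.0061, edgeR). The 3 of 8 called stand beside 21.1% of all genes. In MDCK-NBL2, 4 fell and 1 rose, beside 44.3% of all genes. In the fit of these 6 libraries alone, 1 of the list fell and none rose, beside 4.48% of genes. GRHL2 fell by 1.94 ± 0.31 (adjusted p = 0.00011, edgeR), from 86.8 to 22.6 CPM, and ELF3 by 2.53 ± 0.44 (adjusted p = 0.00022, edgeR), from 161 to 27.8 CPM. KLF4, an epithelial zinc finger factor, fell by 3.49 ± 1.03 (adjusted p = 0.011, edgeR), while OVOL2 rose by 0.63 ± 0.15 (adjusted p = 0.0023, edgeR). The list's medians were -0.91 in MDCK-II and -1.38 in MDCK-NBL2, against -0.03 and -0.04 over all genes. No member differed between the responses of the sublines, but leaving out the libraries that stood apart, where 21.3% of genes differed, gave 1 higher and 2 lower in MDCK-NBL2. None passed with siPRRX1, where the median was 0.31 and the paired fit of the 6 libraries called 3 higher, beside its 22.5% of genes. In the paired fit of the TGFb comparison in MDCK-II, 4 of the list fell, beside 28.4% of genes, and 5 fell there without the libraries that stood apart, beside 30.7%.

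Epithelial genes described as ZEB targets, 25 of 27 tested, moved in both directions in MDCK-II, with 5 lower and 4 higher and a median of 0.09 on the log2 scale, beside 21.1% of all genes called. ESRP1, an epithelial splicing factor, fell by 0.88 ± 0.14 (adjusted p = 0.0004, edgeR), MAL2, an apical trafficking protein, by 1.67 ± 0.30 (adjusted p = 0.00099, edgeR) and the tight junction gene CGN by 1.17 ± 0.26 (adjusted p = 0.0044, edgeR). MPP7, a polarity scaffold, rose by 1.23 ± 0.25 (adjusted p = 0.0028, edgeR). In MDCK-NBL2, 10 fell and none rose, with a median of -0.35. The share of the list called in either direction lies near the 44.3% of all genes. Of the 12466 genes tested, however, 2612 rose and 2913 fell. In the fit of these 6 libraries alone 5 fell, beside 4.48% of genes. MAL2 fell by 2.02 ± 0.31 (adjusted p = 9.2e-05, edgeR), the adhesion gene EPCAM by 1.30 ± 0.20 (adjusted p = 0.00011, edgeR) and ESRP2, a splicing factor like ESRP1, by 0.71 ± 0.12 (adjusted p = 0.00022, edgeR). CLDN3, a tight junction gene, fell by 2.09 ± 0.34 (adjusted p = 0.00012, edgeR). When the libraries that stood apart were left out, 3 of the list rose and 11 fell there, beside 54.9% of genes.

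CDH1, the textbook ZEB target, fell by 0.57 ± 0.16 on the log2 scale in MDCK-NBL2 with TGFb (adjusted p = 0.0075, edgeR), from 1343 to 901.5 CPM, and stood at -0.17 ± 0.16 in MDCK-II (adjusted p = 0.47, edgeR). The direct test between the sublines did not pass for CDH1, at -0.40 ± 0.23 (adjusted p = 0.31, edgeR). It passed for TJP3, ESRP2 and EPCAM, whose responses were lower in MDCK-NBL2 by 2.71, 0.84 and 1.25 on the log2 scale.

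With siPRRX1, 5 of the 25 epithelial genes rose and none fell, against 2.00% of all genes called in either direction. ESRP2 rose by 0.60 ± 0.12 on the log2 scale (adjusted p = 0.016, edgeR), OCLN by 0.58 ± 0.14 and CDH1 by 0.68 ± 0.16 (both adjusted p = 0.033, edgeR), and MAL2 by 1.25 ± 0.31 (adjusted p = 0.039, edgeR). CLDN3 was the other one, named after its value was seen. CDH1 stood at 727, 931 and 898 CPM with siCTR and at 1151, 1390 and 1551 CPM with siPRRX1, without overlap. The paired fit of the 6 libraries called 17 higher and 2 lower, beside 22.5% of all genes. Without siCTR replicate 1 none of the 25 was called, in a fit that called 98 of 12576 genes. Without the libraries that stood apart 7 rose and none fell, beside 5.58% of genes.

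**Figure D4:**
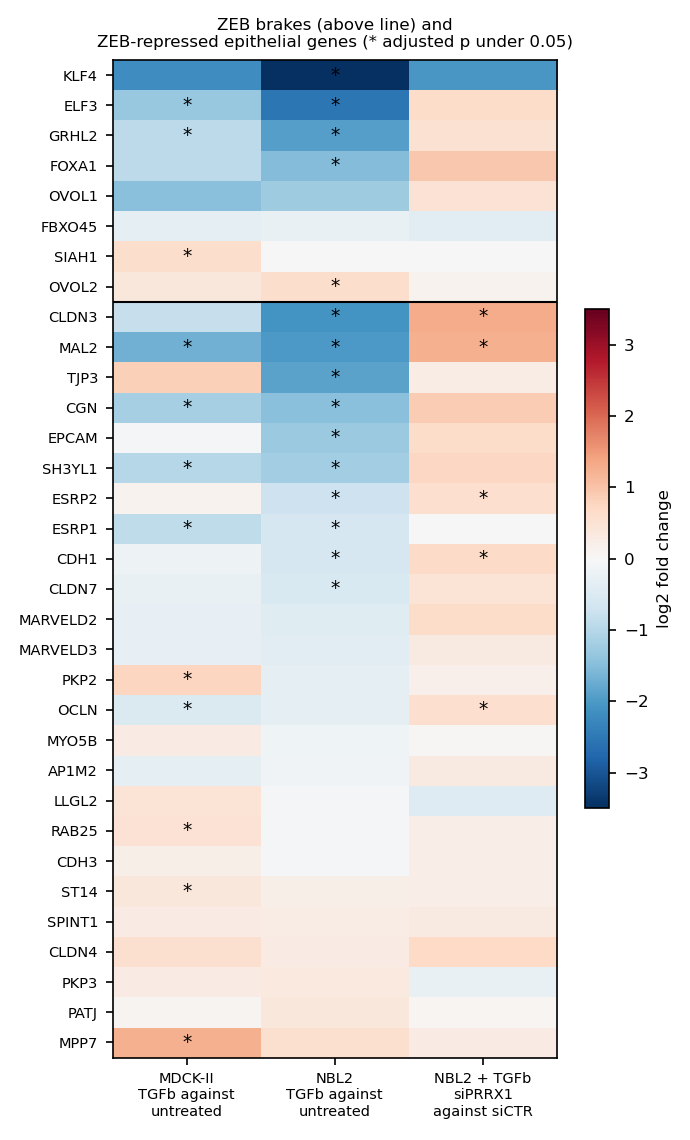
Log2 fold changes, as colour, of 8 factors that restrain ZEB (above the line) and 25 epithelial genes described as ZEB-repressed, in both comparisons of TGFb with untreated day 4 and in the knockdown. Asterisks mark an adjusted p under 0.05, with 10 epithelial genes lower in MDCK-NBL2 and 5 higher with siPRRX1.

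Of 20 mesenchymal genes described as raised along with ZEB factors, 16 were tested. TGFb raised 7 and lowered none in MDCK-II, with a median of 1.58 on the log2 scale, beside 21.1% of all genes called. They included the integrin gene ITGA5, at 4.16 ± 0.74 (adjusted p = 0.00099, edgeR), fibronectin FN1, at 3.91 ± 0.76 (adjusted p = 0.0018, edgeR), and smooth muscle actin ACTA2, at 5.08 ± 1.71 (adjusted p = 0.041, edgeR). In MDCK-NBL2, 9 rose and 1 fell, with a median of 1.84, beside 44.3% of all genes. In the fit of these 6 libraries alone 1 rose and none fell, beside 4.48% of genes. The hyaluronan receptor gene CD44 rose by 1.43 ± 0.24 (adjusted p = 0.00019, edgeR), the matrix gene SPARC by 4.97 ± 0.89 (adjusted p = 0.00038, edgeR), the collagen-crosslinking enzyme gene LOXL2 by 2.71 ± 0.58 (adjusted p = 0.0011, edgeR) and the integrin gene ITGB1 by 0.99 ± 0.21 (adjusted p = 0.0012, edgeR). When the libraries that stood apart were left out, SPARC rose by 8.01. CCN1 was the member that fell there, named after its value was seen. With siPRRX1 none passed, with a median of -0.66, whereas the paired fit of the 6 libraries called 10 lower and 3 higher, beside 22.5% of all genes, and leaving out the libraries that stood apart gave 2 lower, beside 5.58%. The summed fibroblast markers, which share COL1A2 with this list, stood at 2032 to 2471 CPM with siCTR and 689.5 to 1411 CPM with siPRRX1. Their part in these counts was not tested.

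In treated cells, MDCK-NBL2 against MDCK-II, 10 of the 16 mesenchymal genes were higher and 3 lower, and of the 25 epithelial genes 5 were higher and 5 lower, beside 45.9% of all genes, where ZEB1 and ZEB2 themselves did not pass. Of the 8 restraining factors 1 was higher and 2 lower, with OVOL2 higher by 1.89 ± 0.15 on the log2 scale (adjusted p = 1.9e-08, edgeR). Against day 0, treated MDCK-NBL2 cells had 13 mesenchymal genes higher and 1 lower, and 5 epithelial genes higher and 8 lower, beside 58.2% of all genes. Treated cells with siPRRX1 had 11 mesenchymal genes higher and 1 lower, and 11 epithelial genes higher and 4 lower, beside 57.0%. Both share the day 0 libraries. In MDCK-II against day 0, 6 mesenchymal genes were higher and none lower, and 7 epithelial genes were higher and 2 lower, beside 36.2%. The epithelial shares of 10, 13 and 9 in 25, against treated MDCK-II and against day 0 in each subline, thus lay near or under those of all genes.

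The genes whose log2 levels ran most like ZEB1 over the 24 libraries were CCDC88A (Pearson r = 0.89), which encodes the actin-binding protein girdin, then MLLT11 (0.87), the basement membrane collagen gene COL4A1 (0.87), the matrix gene EDIL3 (0.87), SNAI2 (0.85) and COL4A2 (0.85). CCDC88A, for example, averaged 26.1 ± 10.9 CPM (SD, n = 3) in untreated MDCK-II at day 4 and 60.1 ± 16.9 CPM with TGFb, and 12.3 ± 3.87 and 53.8 ± 22.4 CPM in the same groups of MDCK-NBL2. Running opposite to ZEB1 were PCBD1 (r = -0.91), PLEKHG6 (-0.91), TMEM125 (-0.90) and MFSD6 (-0.89). Most like ZEB2 were KCNG1 (r = 0.93), a potassium channel subunit gene, KLF10 (0.93), a TGFb-inducible zinc finger factor, PEAK1 (0.92), TANC2 (0.92), CLEC2L (0.92) and PPARD (0.91), a nuclear receptor gene. No gene was in both lists. ZEB1 and ZEB2 correlated with each other at r = 0.71, rank 172 of 10729 genes, or 0.75 without untreated MDCK-NBL2 day 4 replicate 2. These libraries share groups and treatment, and the correlations are descriptions only.

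**Figure D5:**
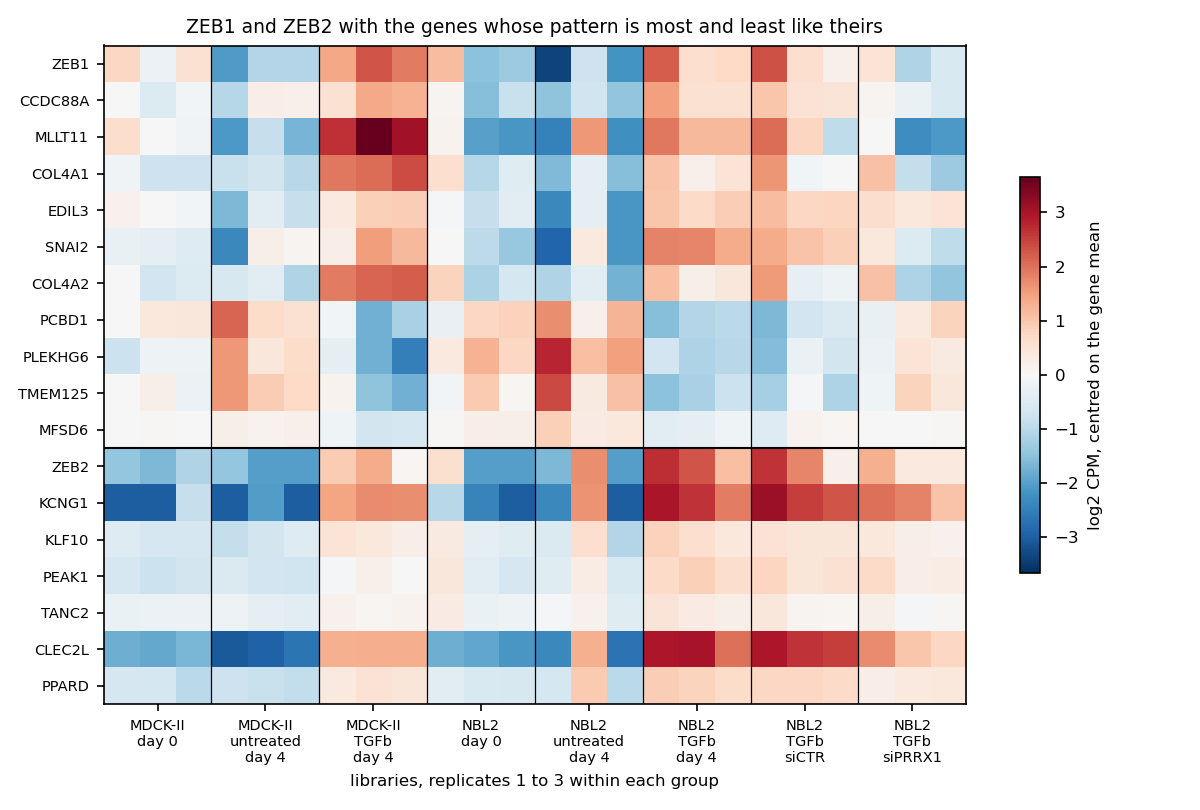
Log2 CPM centred on each gene's mean over the 24 libraries, as colour, for ZEB1 with the 6 most and 4 least similar genes (above the line) and ZEB2 with its 6 most similar genes. For ZEB1 all untreated day 4 libraries lie below the mean and all treated ones without siPRRX1 above it, and untreated MDCK-NBL2 replicate 2 is high for ZEB2 and KCNG1.

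The genes beside ZEB1 and ZEB2 were read from the order of genes in the RefSeq annotation of another dog assembly, UU_Cfam_GSD_1.0. ZNF438 overlaps ZEB1 in that annotation and was called in none of the 13 comparisons. The lncRNA genes LOC102156269 and LOC119864491 overlap ZEB2 there and are absent from the counts. The counting of reads by strand is not given in the sources used here, so reads of these overlaps cannot be assigned to a single gene with certainty. Flanking genes were taken as the nearest named protein-coding genes that the counts also hold. Of the flanking genes, SVIL beside ZEB1 rose with TGFb in MDCK-NBL2 by 1.49 on the log2 scale (adjusted p = 0.000106, edgeR), but stood at 0.21 in MDCK-II (adjusted p = 0.549). ARHGAP12, on the other side, fell by 0.40 in MDCK-NBL2 (adjusted p = 0.00436, edgeR). GTDC1 and ACVR2A beside ZEB2 did not pass with TGFb in either subline.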

How the data were processed

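The authors deposited raw counts, 1 column for each of 24 libraries and 1 row per gene. Per the submitters' processing notes, STAR 2.5.3a, RSEM 1.3.0 and FastQC were used with CanFam3.1, and the labels give stranded mRNA libraries. No source used here gives their settings. Symbols came from the table.

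The test was the quasi-likelihood F test of edgeR 4.0.16 (R 4.3.3), from 1 model that held a mean for each of 8 groups (16 residual degrees of freedom), TMM scaling, filterByExpr (minimum count 10, total 15), prior count 0.125 and a common biological coefficient of variation of 21.9%. P-values were adjusted by Benjamini-Hochberg over 12466 genes, with 0.05 as the threshold. SEs were taken as the log2 fold change divided by the root of F. Count ratios have exact conditional 95% intervals. The model was tested on simulated data with the same spread for every gene and changes only in genes with more counts. That run does not cover sparse genes such as ZEB2 or libraries that stand apart. Likeness used log2 CPM with a prior count of 2.

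Libraries with the same replicate number were taken as pairs where all 3 correlations of their deviations passed 0.1, which held for TGFb against untreated day 4 in MDCK-II (0.421, 0.251 and 0.295) and for siPRRX1 against siCTR (0.343, 0.189 and 0.164). The labels do not say what a number shares. The members and the 5 lists were chosen with earlier results of these data known. For each list, counts and up to 4 members with the smallest adjusted p are given. Alternatives were DESeq2 1.42.0, its size factors, no filter, a replicate block, the library number series, only the groups compared and each library left out. The fit without untreated MDCK-NBL2 day 4 replicate 2 was made for every comparison, also those that do not hold it. Leaving out both libraries that stood apart, and day 0 as control, were chosen after seeing the data. A TGFb dose is left out because its unit in the labels is doubtful. The microRNA genes of the lists are not analysed here. A single member of a list is counted in it but its own values are not reported here.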

Additional observations from a re-analysis of the deposited data

Results flagged for a closer look

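The direct test of the TGFb response in MDCK-NBL2 minus that in MDCK-II passed for 7 genes reported here from the 5 lists, and for neither ZEB1 nor ZEB2. By list, it passed for 3 of 15 upstream genes, 1 of 15 corepressors and 0 of 8 restraining factors. It passed for 3 of 25 epithelial and 1 of 16 mesenchymal genes, beside 5.70% of all genes. The differences on the log2 scale were -0.58 for HDAC3, -2.71 for TJP3, -0.84 for ESRP2, -1.25 for EPCAM, -1.40 for TGFB2, -1.30 for SMAD3 and -2.40 for SMAD7. Without the libraries that stood apart, all 7 stayed negative and passed in edgeR, where 2670 genes were called instead of 711 and 9 list members passed in the positive direction. In the fit of only the 4 groups with a replicate block, which called 49 genes, 3 epithelial genes were called lower and none of the upstream genes or corepressors, so that TGFB2, SMAD3, SMAD7 and HDAC3 lost their calls.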

How the results depend on the processing

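Values are log2 fold changes from edgeR, except a ratio of counts, with adjusted p in brackets where the call turned. Over settings other than leaving out 1 library, 88 of 106 values of ZEB1 and 90 of 100 of ZEB2 kept direction and call, and over single libraries left out 79 of 93 and 68 of 93. The 100 ZEB2 values include ratios of summed counts, which have no p and were judged on direction alone. They also include DESeq2 values without an adjusted p, taken as not called, so the 90 overstate how many calls were kept. Fitting only the groups compared gave ZEB1 3.22 (0.064) for TGFb in MDCK-NBL2, -1.82 (0.039) for day 4 against day 0 in MDCK-II and 1.64 (0.0017) for TGFb against day 0 in MDCK-II. With a replicate block in that fit ZEB1 was 3.41 (0.089) for TGFb in MDCK-NBL2, -1.66 (0.0023) for siPRRX1, 1.64 (0.0046) and 1.63 (0.0088) for TGFb against day 0 in MDCK-NBL2 and MDCK-II, and -0.091 for siCTR against TGFb alone, and ZEB2 was 1.33 (0.013) between the treated sublines. The replicate block in the fit of all libraries turned siCTR against TGFb alone to -0.006 for ZEB1. Library series as a term gave ZEB1 0.09 for the difference of responses and 0.13 for siPRRX1 against day 0, and ZEB2 3.70 (0.052) for TGFb against day 0 in MDCK-II, which was 3.68 (0.057) without a filter. The ratio of summed counts gave ZEB2 0.13 for siCTR against TGFb alone. Settings chosen after seeing the data left out both libraries that stood apart, which held the highest ZEB1 and ZEB2 values of their groups. ZEB1 was then 1.46 for the difference of responses, -1.83 (0.049) for day 4 against day 0 in MDCK-II, -1.97 (0.049) between sublines at day 0, 2.94 (0.0024) and 1.57 (0.023) for TGFb against day 0 in MDCK-NBL2 and MDCK-II and 1.43 for siPRRX1 against day 0. ZEB2 was 5.92 (0.00015) for TGFb in MDCK-NBL2, 0.86 for the difference of responses, -3.03 and 0.44 (0.88) between sublines at day 0 and untreated day 4, and 6.59 (0.00093) for siPRRX1 against day 0. Day 0 as the control without replicate 1 of MDCK-NBL2, also chosen later, gave differences of 1.38 for ZEB1 and 4.40 for ZEB2. The cause was not tested for any of these. With 1 library left out, ZEB1 ranged from -3.47 to -0.23 for day 4 against day 0 in MDCK-NBL2, -0.91 to 1.46 for the difference of responses, -1.98 to 0.06 and -2.06 to 0.21 between sublines at day 0 and untreated day 4, -0.97 to 0.78 for siCTR, -0.87 to 1.41 for siPRRX1 against day 0 and 0.71 to 2.95 for TGFb against day 0 in MDCK-NBL2. ZEB2 ranged from -2.54 to 6.29, -5.00 to 0.86, -3.09 to 2.55, 0.44 to 6.31, -1.05 to 0.16, 0.99 to 6.63 and 2.45 to 8.10 in the same comparisons, and from 4.16 to 6.79 and 1.20 to 5.93 for TGFb in MDCK-II and MDCK-NBL2 and 3.26 to 3.98 for TGFb against day 0 in MDCK-II. ZEB2 rested on few counts, and DESeq2 gave it no adjusted p for the difference of responses or for siPRRX1. For TGFb in MDCK-NBL2 the fit of its 6 libraries called 510 genes, or 40 with the block, against 5525, and with the block 2 epithelial genes of the 5 lists. Of 1260 list counts under alternatives, 1005 stayed within 1.5 times.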
